A study of Mus with 8 samples.

Results

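Oxidative phosphorylation was followed through 100 genes of the mouse liver, 13 of them encoded by mitochondrial DNA and 87 by the nucleus. They were taken by symbol from the 54532 rows of the deposited table. The symbols were the mitochondrial mRNAs (mt-), the complex I genes (Ndufa, Ndufb, Ndufc, Ndufs and Ndufv, among them the Ndufaf assembly factors), Sdha to Sdhd, the Uqcr genes with Cyc1, Cox4 to Cox8, and Atp5. A gene had to be listed as protein coding and to have a summed count of at least 80 over the 8 libraries, and the rule itself uses no measured difference between the groups. Of 108 matching rows, 8 were under that minimum.

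The libraries came from liver tissue of mice given 2.5% dextran sulfate sodium (DSS), an agent that injures the colon and is used to model colitis, until day 6. The 4 libraries of the DSS group were numbered 15, 48, 49 and 50. The 4 libraries of the DSSHA group, called the diet-alcohol group here, were numbered 35, 45, 65 and 71 and came from mice that had a high-fat diet and alcohol in addition to DSS. The design text names a purified and a dietary high-fat feed, the latter with alcohol, and does not state outright which feed the DSS group ate. Both groups had DSS, mice without DSS were not analysed here, and diet and alcohol cannot be told apart. Strain, sex and age were not given in the labels used here. Whether each library stands for its own mouse is not written out in the labels, and p-values thus speak only of the spread over these libraries.

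The respiratory chain sits in the inner mitochondrial membrane. Complex I (NADH dehydrogenase) and complex II (succinate dehydrogenase) pass electrons through ubiquinone to complex III (cytochrome bc1), cytochrome c and complex IV (cytochrome c oxidase), and ATP synthase uses the proton gradient that complexes I, III and IV build. Complex II is wholly nuclear encoded, whereas the other complexes combine subunits of both genomes. Mitochondrial mRNAs are cut from long transcripts of the entire circle, with tRNAs lying between many of them, and only mt-Nd6 is read from the opposite strand. Hepatocytes hold many mitochondria and use this chain for the ATP that urea, glucose and protein synthesis require.

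No member differed between the groups past an adjusted p of 0.05 (edgeR quasi-likelihood test, Benjamini-Hochberg over all genes tested). Over all genes scaled together, 0 of 99 tested members were called, against 1.26% of the 11729 genes tested. Over nuclear counts alone, 0 of 87 were called, against 1.26% of 11879 genes. At an unadjusted edgeR p under 0.05, 7 of the 87 nuclear members (8.05%) and 0 of the 13 mitochondrial mRNAs were found, beside 11.6% of all nuclear genes and 11.7% of all genes. DESeq2 also called 0 members in both fits, where it called 3.07% of all genes and 3.15% of nuclear genes, as did limma-voom, with 1.02% and 1.04%. At an unadjusted p under 0.05, limma-voom found 12 members over all genes and 7 over nuclear counts, and DESeq2 9 and 8. The shares of all genes at that p were not counted for these methods. Counts over all genes take in the mitochondrial mRNAs, which are not given apart, so no excess of members can be read from them. In the authors' deposited table, 0 of 100 members had an adjusted p under 0.05, 9 had a p under 0.05, and the smallest adjusted p was 0.188. The share of all genes with a p under 0.05 is not given there either.

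For 67 of the 87 nuclear members (77%), the 95% interval of the log2 fold change lay within 1 log2 unit of 0 on both sides, so that a change of 2-fold or more was outside the interval. The same held for 35.2% of all nuclear genes tested. The mitochondrial mRNAs gave no such bound, and the interval crossed 1 log2 unit for all 13, whereas 35.5% of all genes scaled together lay within it. In bulk tissue, fewer cells of a type and less RNA per cell cannot be told apart.

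Libraries held 12502300 to 16967839 counts, and nuclear genes held 2722757 to 10947612 of them, so nuclear members were measured at very unequal depth. Library 35 of the diet-alcohol group stood apart, with only 784 genes having between 1 and 9 counts, where the other libraries had 4319 to 4987. All 10 hepatocyte markers were present, and their summed level was 118500 to 184900 CPM (counts scaled to a common library size, here that of nuclear genes alone) in the DSS libraries and 82950 to 104200 in the diet-alcohol libraries, without overlap, and 0 of 10 were called. That separation rested on albumin (Alb, 73400 to 122000 against 36000 to 56400 CPM), since the other 9 summed to 45100 to 62800 and 46900 to 54900 CPM. Of those 9, Fgb and Trf were higher in every diet-alcohol library and 7 overlapped. Neutrophil markers summed to 6.99 to 28.65 CPM and 66.5 to 138.5 CPM respectively; 3 of the 8 could be tested and all 3 were called higher, where 0.581% of nuclear genes were. Kupffer cell and macrophage markers summed to 439 to 696 CPM and 755 to 1494 CPM, with 1 of 8, Marco, called higher. Without Marco the sums were 421 to 668 CPM and 519 to 1090 CPM, with overlap. What part these cell type markers have in the values of the respiratory genes was not tested.

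The mitochondrial mRNAs made up between 29.3% and 78.1% of all counts. Values below are given in the order 15, 48, 49, 50 for DSS and 35, 45, 65, 71 for the diet-alcohol group. Per nuclear count there were 1.25, 1.26, 2.29 and 3.74 mitochondrial mRNA counts in the DSS libraries, and 0.713, 0.539, 2.66 and 0.42 in the diet-alcohol libraries. Diet-alcohol libraries 35, 45 and 71 were below every DSS library, whereas 65 lay above 3 of the 4 DSS libraries, so the groups overlapped.

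The single mRNAs were then compared. Their CPM was scaled by TMM over all genes. The mRNA of mt-Co1, the catalytic subunit of complex IV (mitochondrial genome, 5328 to 6872, plus strand), measured 162100, 177600, 359200 and 509600 CPM in DSS and 126200, 89530, 341100 and 65400 in the diet-alcohol group. Library 65 again sat among the DSS values and the other 3 below them. Its log2 fold change was -0.96 ± 0.59 (SE; 95% interval -2.26 to 0.34; edgeR adjusted p = 0.608).

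The cytochrome b mRNA mt-Cytb, the only mitochondrial gene of complex III, measured 103600, 111500, 215000 and 304700 CPM in DSS and 32140, 46310, 203200 and 34420 CPM in the diet-alcohol group. It differed by -1.22 ± 0.65 log2 units (edgeR adjusted p = 0.526). The smallest adjusted p of the 13 belonged to mt-Nd1, a complex I subunit in the membrane arm, with 56090, 62270, 119800 and 171400 CPM against 22900, 26050, 101800 and 18910 CPM. Library 65 was the only one of the diet-alcohol group above the lowest DSS library for mt-Nd1. The log2 fold change was -1.27 ± 0.61 (edgeR adjusted p = 0.455).

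**Figure D1:**
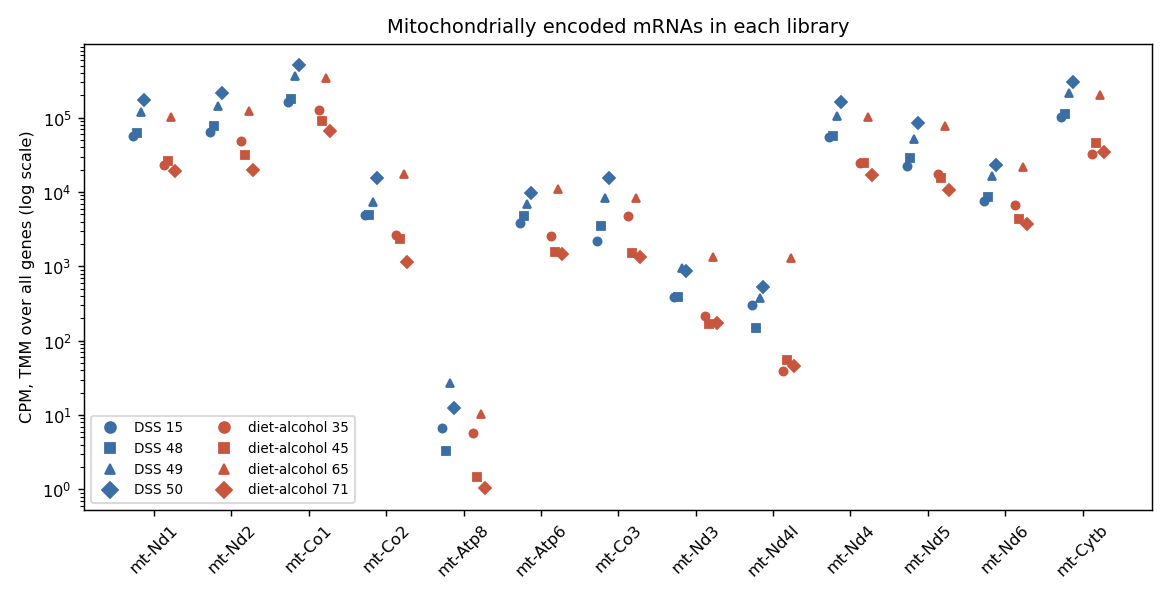
CPM of each of the 13 mitochondrial mRNAs on a log axis, in genome order, with 1 point per library and the DSS libraries in blue and the diet-alcohol libraries in red. Library 65 lies within or above the range of the DSS libraries for every mRNA, and for mt-Nd1 the other 3 diet-alcohol libraries lie below all DSS libraries.

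Of the 13 mRNAs, 12 had a negative log2 fold change, with a median of -0.90 over all 13 beside -0.01 over all genes tested. By complex, the medians were -0.61 for the 7 complex I mRNAs, -0.90 for the 3 of complex IV and -1.03 for the 2 of ATP synthase. Of the other mRNAs, mt-Nd2 stood at -1.18 and mt-Nd4 at -1.17 log2 units, mt-Co3 at -0.90, mt-Atp6 at -0.62, mt-Nd5 and mt-Nd6 at -0.61 each, mt-Co2 at -0.46 and mt-Nd3 at -0.45, all with 95% intervals across 0. The sparsely counted mt-Atp8 stood at -1.44 ± 0.76. The exception was mt-Nd4l, with 306, 150.4, 379.6 and 523 CPM in DSS and 39.6, 55.4, 1282 and 45.9 CPM in the diet-alcohol group. It had the highest value in library 65 and the 3 lowest in the other diet-alcohol libraries, and the log2 difference of 0.07 had a 95% interval from -2.13 to 2.26.

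Library 65 decided these values. Without it, all 13 log2 fold changes were negative, from -1.51 to -2.85. Only mt-Nd4l was then past the threshold (-2.85; edgeR adjusted p = 0.00916, with 1.16% of all genes called), and the next smallest adjusted p was 0.0504. A nuclear pseudogene row that matches mt-Nd4l in position, described below, held 20.4 to 56.3% of their joint counts. The level of mt-Nd4l is thus uncertain, and so is this call. The 13 mRNAs largely rose and fell together with the mitochondrial amount of a library, so they are not 13 separate results. Without DSS library 50 the medians were -0.30 for complex I and -0.25 for complex IV. With library totals in place of TMM, the median over all genes shifted to 0.63 and the mitochondrial median was -0.24, so the difference between them was similar in size.

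The spread among libraries was much wider for the mitochondrial than for the nuclear members. The highest library exceeded the lowest by a median of 9.46-fold over the 13 mitochondrial mRNAs (6.29 to 32.4-fold), and by 1.96-fold over the 87 nuclear members on nuclear counts. DSS library 50 was highest for 8 of the 13 and diet-alcohol library 65 for 4, and diet-alcohol library 71 was lowest for 10.

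Within the mitochondrial mRNAs, the makeup was compared as the share of each in their sum, which does not depend on how much mitochondrial RNA a library held. The groups did not overlap for 5 of the 13 shares (38.5%). In CPM, 0 of the 13 were without overlap, where 8.77% of all genes were. Shares divide a fixed whole, so a larger share of some mRNAs lowers that of others. The 5 are thus not separate results, and the 8.77% is no background for them. Each of the 5 had an exact two-sided permutation p of 0.0286, the smallest that 70 assignments can give, and an adjusted p of 0.0743 over the 13 shares, so 0 of 13 were past the threshold.

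Both mRNAs at the join of the strands took a larger share in the diet-alcohol group. mt-Nd6, a complex I subunit on the minus strand (13552 to 14070), made up 1.55, 1.597, 1.57 and 1.53% of mitochondrial mRNA counts in DSS and 2.31, 1.77, 2.135 and 2.11% in the diet-alcohol group. Its share was 1.33 times as large on average, and the lowest diet-alcohol value was above the highest DSS value. mt-Nd5, the complex I subunit at the far end of the membrane arm (11742 to 13565, plus strand), made up 4.59, 5.34, 4.91 and 5.64% against 6.06, 6.42, 7.75 and 6.13%, or 1.29 times as much. Both kept their separation in all 4 diet-alcohol libraries, library 65 included. The genes overlap in the annotation and no source used here gives the strand setting of the counting, which means that reads from one can have been counted for the other.

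The other 3 separated shares were smaller in the diet-alcohol group. mt-Nd1 made up 11.6, 11.6, 11.5 and 11.3% in DSS and 7.95, 10.7, 10.05 and 10.9% in the diet-alcohol group. mt-Cytb made up 21.5, 20.8, 20.7 and 20.10% against 11.2, 19.1, 20.06 and 19.8%, so DSS library 50 and diet-alcohol library 65 were almost equal. mt-Nd4, a complex I subunit between mt-Nd4l and mt-Nd5 (10167 to 11544), made up 11.3, 10.5, 10.3 and 10.6% against 8.48, 10.1, 10.15 and 9.79%. In each, library 35 was the lowest of all, and the other 3 diet-alcohol libraries lay closer to the DSS libraries. Without library 35, the unadjusted exact permutation p was 0.0286 for mt-Nd1 and 0.0571 for both mt-Nd4 and mt-Cytb. The share of mt-Co1 was 33.6, 33.1, 34.6 and 33.6% in DSS and 43.8, 36.9, 33.7 and 37.6% in the diet-alcohol group, with an overlap through library 65 (exact permutation p = 0.0571, adjusted p = 0.124).

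**Figure D2:**
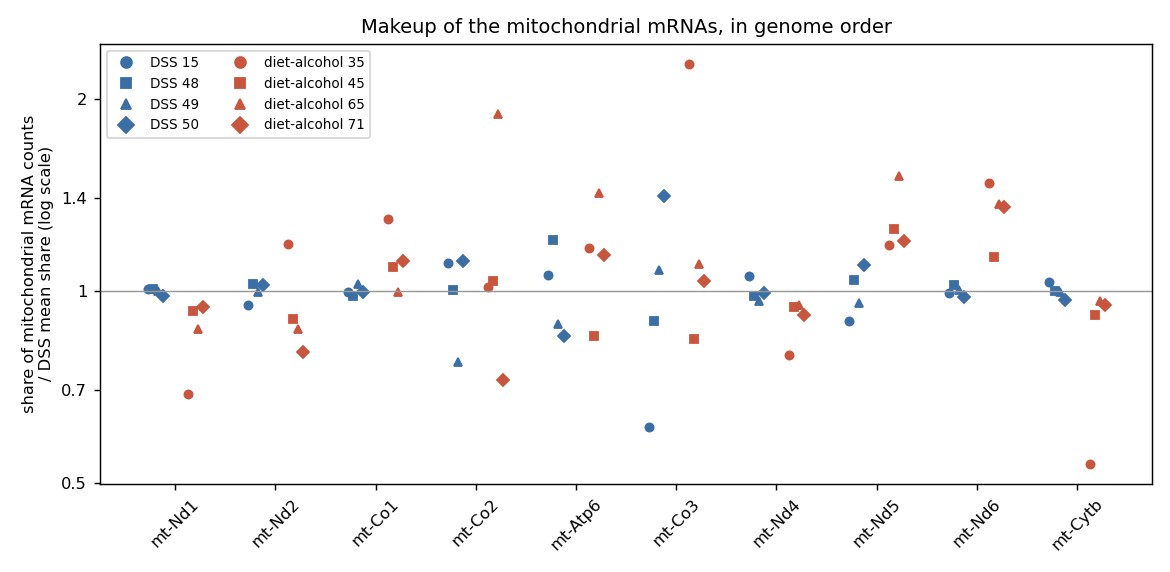
Share of each of the 10 largest mitochondrial mRNAs in all mitochondrial mRNA counts, divided by the mean share of the DSS libraries and drawn on a log axis, with 1 point per library (DSS blue, diet-alcohol red). The diet-alcohol points of mt-Nd5 and mt-Nd6 all lie above the DSS points and those of mt-Nd1, mt-Nd4 and mt-Cytb all lie below.

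The non-coding mitochondrial RNAs showed a similar separation in their share of all mitochondrial counts. The ribosomal RNAs mt-Rnr1 and mt-Rnr2 together held 0.65 to 1.26% in DSS and 1.33 to 2.63% in the diet-alcohol group. The 22 tRNA rows together held 0.148 to 0.212% and 0.253 to 0.314%. Neither measure overlapped between the groups, and neither was tested. As a share of all counts the ribosomal RNAs did overlap, at 0.363 to 0.875% in DSS and 0.587 to 0.974% in the diet-alcohol group. Single tRNAs went both ways, with log2 fold changes of -1.40 for mt-Te and 1.42 for mt-Tc (edgeR adjusted p = 0.541 and 0.405). Of the tRNA counts, 91.7% were in the 8 genes on the minus strand, where mt-Tp, 1 tRNA gene beyond the 3' end of mt-Cytb, held 81713 counts over all libraries and mt-Te, between mt-Nd6 and mt-Cytb, held 24121. With the strand setting unknown, these rows may hold reads of the RNAs beside them.

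Level per length differed widely among the mitochondrial mRNAs. On the authors' FPKM scale, the mean over the 8 libraries was 145000 for mt-Co1, 112400 for mt-Cytb, 86040 for mt-Nd2 and 74050 for mt-Nd1, and 10090 for mt-Co2, 7485 for mt-Atp6, 7074 for mt-Co3, 1583 for mt-Nd3, 1152 for mt-Nd4l and 40.9 for mt-Atp8. The low values lay together on the genome. All 6 genes wholly within bases 6381 to 11043 of the mitochondrial genome ranged from 40.9 to 10090 FPKM, and the 5 genes outside it from 20780 to 112400 FPKM.

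That stretch has a counterpart in the nuclear genome. Chromosome 1 (GRCm38, 24611535 to 24616197, minus strand) holds 7 unprocessed pseudogene rows in the same order and spacing as mt-Co1 to mt-Nd4, with offsets of at most 1 base; the sequences were not compared. The pseudogene rows held 20.2 to 43.5% of the joint counts of mt-Co2 and its copy, 19.1 to 60.8% for mt-Co3, 25.5 to 38.3% for mt-Atp6, 19.9 to 29.2% for mt-Nd3 and 20.4 to 56.3% for mt-Nd4l. For mt-Co1 and mt-Nd4, which lie only partly inside, they held 0.679 to 1.34% and 0.808 to 1.96%. How reads shared by a copy and its mitochondrial gene were counted is not stated, so the levels of these mRNAs are uncertain. With the copies' counts added to their genes, a calculation chosen after the data were seen, 5 shares still did not overlap between the groups. This could hardly have come out otherwise. Of the 5, mt-Nd1, mt-Nd5, mt-Nd6 and mt-Cytb have no copy here, and that of mt-Nd4 held 0.808 to 1.96%. The mean DSS share of mt-Nd1, for example, moved from 11.5 to 11.3%. Reads that were dropped as shared would not be restored by it, so the calculation does not settle the effect of shared reads.

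**Figure D3:**
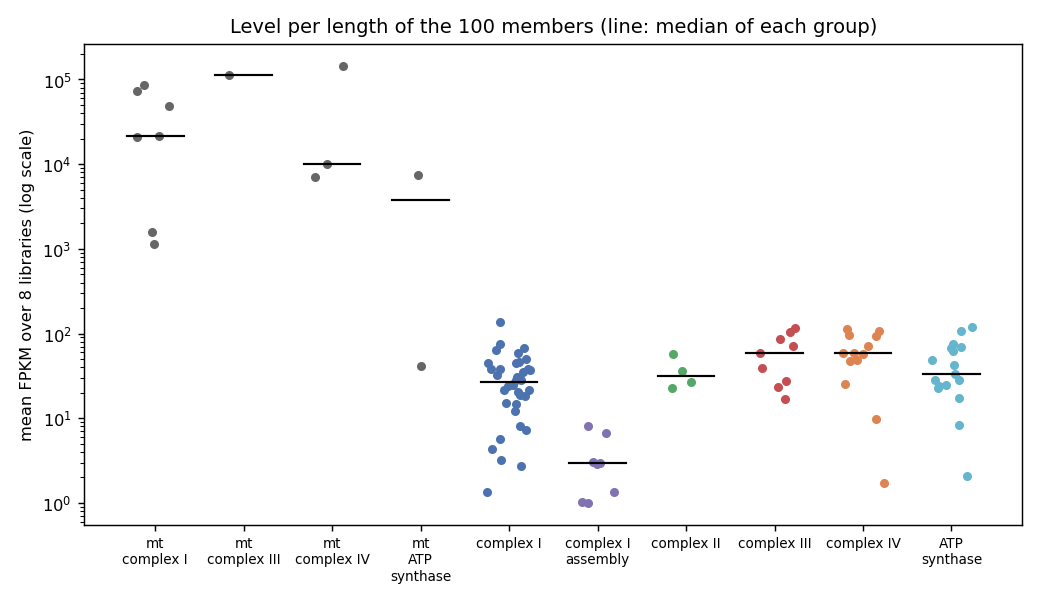
Mean FPKM over the 8 libraries of each of the 100 members on a log axis, grouped by complex and genome, with a line at each group's median. Mitochondrial mRNAs, in grey, reach 145000 FPKM, and nuclear medians run from 2.93 FPKM for the complex I assembly factors to 59.2 FPKM for complex III.

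The nuclear members were far lower and closer to each other. Their median FPKM was 26.5 for the 36 complex I genes, 2.93 for the 8 Ndufaf assembly factors, 31.7 for the 4 complex II genes, 59.2 for the 9 of complex III, 58.2 for the 13 of complex IV and 33.3 for the 17 of ATP synthase, against 1.47 over all nuclear genes tested. Mean FPKM was at least 100 for 7 nuclear members, with Ndufa2, an accessory subunit of complex I, highest at 136, then Atp5a1, the alpha subunit of ATP synthase, at 119. FPKM rests on the gene length in the deposited table, which for long gene models lowers the level.

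The widely expressed forms of the paired subunits were far above their tissue-restricted counterparts. Cox4i1 had a mean of 113 FPKM and its oxygen-regulated counterpart Cox4i2 0.0676. The muscle forms were likewise low beside the widely expressed ones. Cox6a2 stood at 0.172 beside Cox6a1 at 96.3 FPKM, Cox7a1 at 1.71 beside Cox7a2 at 58.2, and Cox8b at 0.538 beside Cox8a at 106. The testis form Cox6b2 measured 0.402 beside Cox6b1 at 93.2 FPKM, and the hypoxia-induced Ndufa4l2 measured 0.412 beside Ndufa4 at 57.1. Apart from Cox7a1, these low isoforms were below the count minimum, with 60 counts for Ndufa4l2, 55 for Cox6b2, 15 for Cox8b, 12 for Cox6a2 and 6 for Cox4i2 over all libraries. Cox7b2, Cox8c and a second row named Atp5o had 0 counts.

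Summed by complex and expressed as CPM of nuclear counts, nuclear members overlapped between the groups in every complex but complex II. As a whole they summed to 15230, 13830, 14920 and 12800 CPM in DSS and 11410, 15360, 11830 and 13570 in the diet-alcohol group. The sums give weight to the most counted genes, and the diet-alcohol libraries held both the highest total, in 45, and the lowest, in 35.

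The complex I subunits summed to 4012, 3676, 3962 and 3561 CPM in DSS and 2878, 4392, 3584 and 3678 CPM in the diet-alcohol group. Complex III summed to 2046, 1871, 2036 and 1632 CPM against 1135, 2129, 1752 and 1867 CPM. In both complexes library 35 was lowest and 45 highest of all libraries. Complex IV summed to 2399, 2080, 2374 and 1990 CPM against 2011, 2579, 2136 and 2158 CPM, and ATP synthase to 5750, 5188, 5464 and 4641 CPM against 4497, 5267, 3672 and 4948 CPM.

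**Figure D4:**
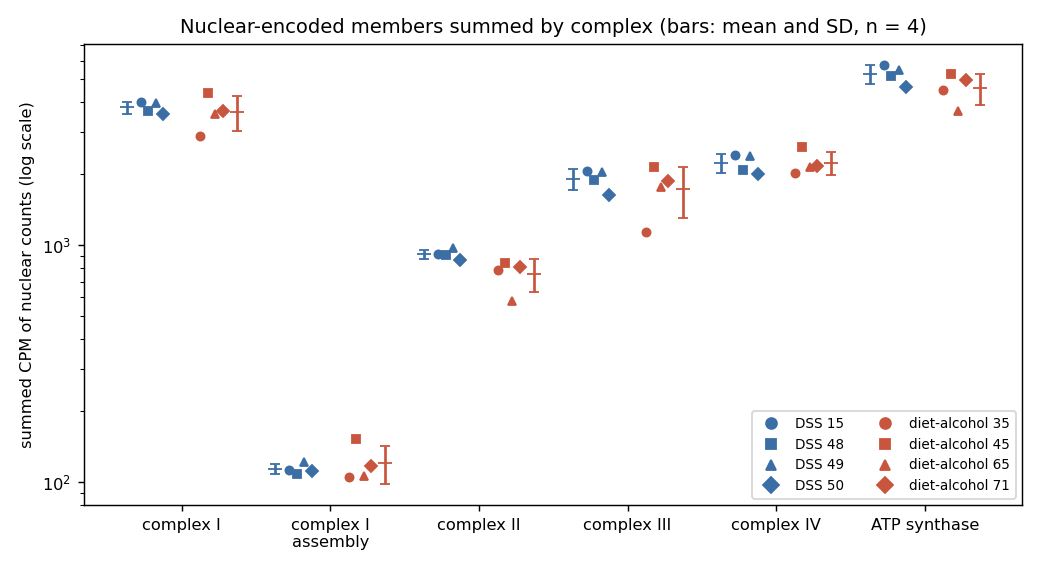
Summed CPM of the nuclear members of each complex on a log axis, 1 point per library with the mean and SD of each group of 4 beside them (DSS blue, diet-alcohol red). The groups overlap in all sums but that of complex II, where the diet-alcohol libraries run from 580 to 839 CPM and the DSS libraries from 867 to 967 CPM.

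The ratio of mitochondrial to nuclear subunit counts within a complex followed the mitochondrial amount. For complex IV it was 171, 217, 384 and 652 in DSS and 160.1, 87.6, 419 and 76 in the diet-alcohol group, and for complex I 125, 154, 271 and 445 against 100.3, 56.1, 294 and 46.2. Library 65 lay within the DSS values in both complexes. For ATP synthase, whose mitochondrial genes both lie in the copied stretch, the ratio was 1.62, 2.26, 3.08 and 4.996 against 1.36, 0.711, 7.2 and 0.727.

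Most single nuclear members lay close to no difference. The log2 fold change on nuclear counts was under 0.5 in size for 77 of 87 and over it for 10. It was negative for 59 and positive for 28, with a median of -0.11 beside -0.005 over all nuclear genes tested. Without library 35 the median was -0.04. Removing the mitochondrial counts moved no nuclear member's log2 fold change by more than 0.0049. The groups did not overlap for 8 of 87 members (9.2%), 2 higher (4.13% of all nuclear genes) and 6 lower (4.63%), against 8.76% of all nuclear genes in either direction, so the members' share was near the background.

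**Figure D5:**
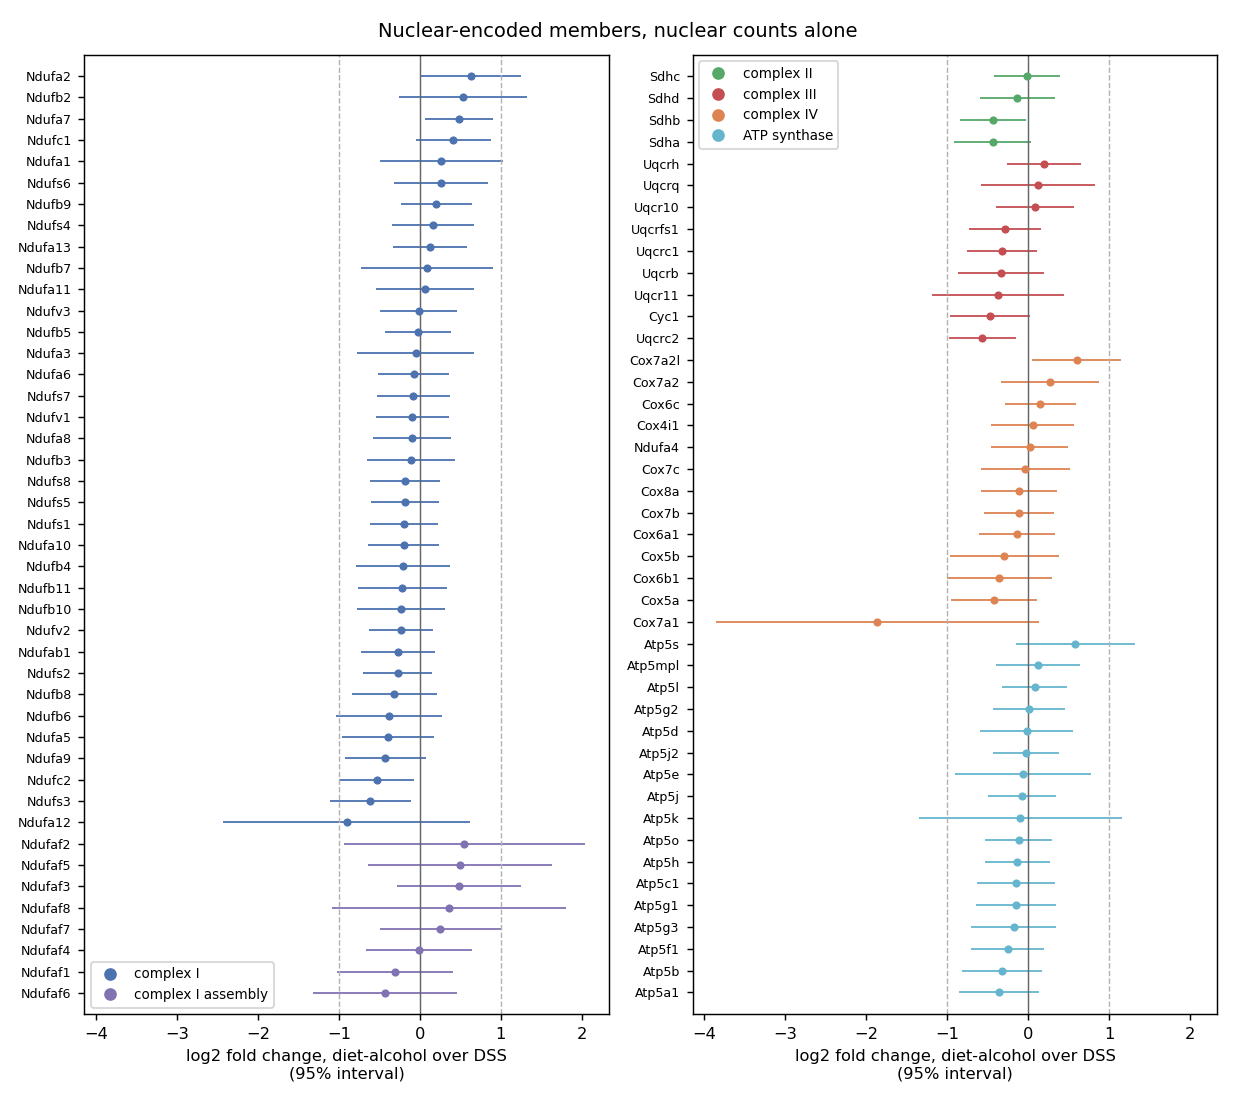
Log2 fold change of each nuclear member, diet-alcohol over DSS on nuclear counts, with its 95% interval, grouped by complex and ordered by size. Dashed lines stand at 1 log2 unit on either side of 0, and 67 of 87 intervals lie wholly between them.

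In complex I, 25 of 36 subunits had a negative and 11 a positive log2 fold change, with a median of -0.10 and 0 called. The 7 nuclear core subunits, which between them hold the flavin and the iron-sulfur clusters, were all negative (-0.08 to -0.61, median -0.19), and 18 of the 29 accessory subunits were (median -0.08). That all core subunits were negative rested on library 65, without which Ndufv1 (0.02) and Ndufs7 (0.02) were positive. The split into core and accessory subunits was not planned. Ndufs3 (chromosome 2, 90894634 to 90904827), a core subunit of the matrix arm, measured 135, 174, 165 and 176 CPM in DSS and 70.1, 129, 120.1 and 108 CPM in the diet-alcohol group. All diet-alcohol libraries were below all DSS libraries, with 35 lowest. The log2 fold change was -0.61 ± 0.23 (95% interval -1.11 to -0.11; edgeR adjusted p = 0.29), and -0.46 without library 35.

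Ndufc2 (chromosome 7, 97400003 to 97407802), an accessory subunit of the membrane arm, measured 50.6, 48.2, 48 and 41.5 CPM in DSS and 28.6, 36, 25.6 and 39.7 CPM in the diet-alcohol group. The groups did not overlap, and the difference was -0.53 ± 0.21 log2 units (edgeR adjusted p = 0.336). Ndufa7 (chromosome 17, 33824591 to 33838316), an accessory subunit, went the other way, with 75.9, 71.3, 59.4 and 60.1 CPM in DSS and 88.1, 109, 84.3 and 91.7 CPM in the diet-alcohol group. All 4 diet-alcohol values were above the DSS values, at 0.48 ± 0.19 log2 units (edgeR adjusted p = 0.331).

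Ndufa2 measured 191, 132, 168 and 111.5 CPM in DSS and 146, 336, 204 and 247 CPM in the diet-alcohol group, where 35 lay within the DSS range and the other 3 above it. The groups differed by 0.63 ± 0.28 log2 units (edgeR adjusted p = 0.411), and by 0.80 once library 35 was left out (adjusted p = 0.105). The largest negative value in complex I was that of Ndufa12, an accessory subunit, at -0.90 ± 0.70, and it rested on library 35. There the gene had 4 counts, or 0.539 CPM, while the other 3 diet-alcohol libraries had 21.4 to 34.5 CPM and the DSS libraries 27.1 to 46.5 CPM. Without 35 the difference was -0.50 log2 units (adjusted p = 0.399). Ndufa12 was chosen for naming after its values were seen.

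The 8 Ndufaf genes, whose products help to build complex I, were 5 positive and 3 negative with a median of 0.31, which leaving out each library in turn moved between 0.007 (without library 45) and 0.46 (without library 35). They summed to 112, 108, 121 and 112 CPM in DSS and 104.5, 152, 106 and 117 CPM in the diet-alcohol group. The smallest p was that of Ndufaf3, with 11.4, 8.99, 11.4 and 13.2 CPM against 7.82, 21.8, 19.4 and 13.8 CPM. Its values in library 35 were lowest and in 45 and 65 highest, and the difference of 0.49 ± 0.35 log2 units did not pass the test (edgeR adjusted p = 0.671). These genes were measured with less precision than the subunits, since only 1 of the 8 intervals lay within 1 log2 unit of 0.

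Complex II was the only complex in which every nuclear subunit had a negative log2 fold change, 4 of 4, with a median of -0.28. This rested on library 65, without which the median was -0.14 and Sdhc (0.07) and Sdhd (0.01) were positive. The subunits summed to 911.5, 910.3, 967 and 867 CPM in DSS (914 ± 41.2, SD, n = 4) and 785, 839, 580 and 805 CPM in the diet-alcohol group (752.5 ± 117, SD, n = 4), without overlap. The size varied from -0.01 for Sdhc to -0.44 for Sdha and Sdhb, and 0 of 4 were called. Beside this, Alb was also lower in all diet-alcohol libraries, whereas the other 9 hepatocyte markers overlapped in their sum, and the part of hepatocyte RNA in the complex II values was not tested.

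Within complex II, the groups did not overlap for Sdha and Sdhb, which form its catalytic head, and neither was called. Of all nuclear genes tested, 8.76% did not overlap. Sdha, the flavoprotein that oxidises succinate (chromosome 13, 74322254 to 74350280), measured 311, 339, 319 and 292 CPM in DSS and 235, 291, 159 and 244.5 CPM in the diet-alcohol group (edgeR adjusted p = 0.485). Sdhb, the iron-sulfur subunit (chromosome 4, 140961203 to 140979193), measured 235, 214, 268.5 and 214 CPM against 170.5, 161, 159 and 198 CPM, at -0.44 ± 0.19 log2 units (95% interval -0.85 to -0.03; edgeR adjusted p = 0.39). For both, every diet-alcohol library was below every DSS library, by less than 1 CPM at the closest for Sdha.

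The membrane anchors Sdhc and Sdhd did not separate. Sdhd measured 190.5, 176, 183 and 185.5 CPM in DSS and 191, 179, 114 and 186 CPM in the diet-alcohol group, so library 65 alone stood low. Its log2 fold change was -0.13 over all libraries. Sdhc measured 174, 181, 197 and 176 CPM against 188.5, 208, 149 and 177 CPM, with a 95% interval from -0.42 to 0.40. Whether the catalytic and the anchor subunits differed from each other in response was not tested.

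In complex III, 6 of 9 nuclear genes were negative, with a median of -0.32 (-0.19 without library 35). Uqcrc2 (chromosome 7, 120635176 to 120659524), a large core subunit on the matrix side, had the smallest p of all nuclear members. It measured 129, 116, 142 and 116 CPM in DSS and 96.55, 89.9, 73 and 79.4 CPM in the diet-alcohol group. The groups were clear of each other, and the difference was -0.57 ± 0.19 log2 units, or 1.48-fold lower (95% interval -0.98 to -0.15; edgeR adjusted p = 0.222). Leaving out each library in turn gave -0.64 to -0.50.

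Its partner core protein Uqcrc1 measured 279.8, 275, 271 and 224 CPM in DSS and 193, 234, 174 and 237 CPM in the diet-alcohol group, with an overlap through DSS library 50 (-0.32; edgeR adjusted p = 0.601). Cyc1, the cytochrome c1 that hands electrons to cytochrome c, measured 197, 175, 175 and 139 CPM against 86.8, 152, 113 and 142.5 CPM (-0.47 ± 0.23; edgeR adjusted p = 0.459). For Cyc1, DSS library 50 lay below diet-alcohol libraries 45 and 71. The complex III gene with the highest FPKM, the small subunit Uqcrq, measured 497, 451, 634 and 424 CPM against 232, 748, 621 and 581 CPM, and library 35 alone was below the DSS range (0.12; 95% interval -0.59 to 0.83).

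In complex IV, 8 of 13 genes were negative and 5 positive, with a median of -0.11 (0.0004 without library 35). Cox7a2l, a relative of Cox7a2 known for joining complexes III and IV into supercomplexes (chromosome 17, 83501919 to 83514333), measured 167, 142, 164 and 173 CPM in DSS and 370.3, 228, 177.5 and 200 CPM in the diet-alcohol group. All diet-alcohol values were above the DSS values, with library 35 far above the rest. The difference was 0.60 ± 0.25 log2 units (edgeR adjusted p = 0.366) and 0.32 without library 35.

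Cox7a1, the muscle and heart form, was the nuclear member with the fewest counts, with 24, 31, 7 and 9 counts in DSS and 0, 9, 6 and 15 in the diet-alcohol group. As CPM these were 3.64, 5.26, 2.04 and 3.22 against 0, 0.896, 1.62 and 1.44, without overlap. Its fitted difference of -1.86 ± 0.91 log2 units (edgeR adjusted p = 0.475) was -1.47 without library 35; it rests on few counts and depends in size on how the 0 is handled. Cox5a, a subunit that joins complex IV early in its assembly, measured 60.5, 60.6, 67 and 47.2 CPM in DSS and 40.9, 48.1, 29.1 and 57 CPM in the diet-alcohol group (-0.42; edgeR adjusted p = 0.561). Cox4i1 measured 502, 406, 474 and 318 CPM against 334, 561, 412 and 458 CPM, with full overlap and a 95% interval from -0.46 to 0.57.

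ATP synthase had 13 negative and 4 positive members, a median of -0.10 and 0 called or non-overlapping. The catalytic subunits were the most counted nuclear members. Atp5b (beta) measured 1281, 1226, 1310 and 1152 CPM in DSS and 1159, 1055, 668.5 and 1091 CPM in the diet-alcohol group. Library 65 was lowest, and 35 lay just above the lowest DSS library. The difference was -0.32 ± 0.22 log2 units (edgeR adjusted p = 0.662). Atp5a1 (alpha) measured 1152, 1032, 1050 and 904 CPM against 858, 888, 553 and 929 CPM, at -0.36 ± 0.22 (edgeR adjusted p = 0.615). In both, the 65 value decided much of the size, with -0.17 and -0.21 without it.

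The 3 genes for the c-ring subunit, Atp5g1, Atp5g2 and Atp5g3, which encode the same mature protein, gave log2 fold changes of -0.15, 0.01 and -0.18. Their 95% intervals all lay between -0.70 and 0.46. The smallest p among the Atp5 symbols was that of Atp5s, a gene named as a coupling factor, with 11.4, 5.26, 6.99 and 10.01 CPM in DSS and 14.6, 11.2, 13.7 and 10.8 CPM in the diet-alcohol group, with some overlap (0.58 ± 0.33; edgeR adjusted p = 0.57).

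Some members were very low in library 35 alone. There, 6 of 87 (6.9%) were under 25% of the median of the other 7 libraries, beside 17.2% of all nuclear genes tested, and no member was so low in any other library. The 6 were Uqcr11 with 45.8 CPM beside a median of 185, Atp5k with 5.93 beside 70.6, Ndufa12 with 0.539 beside 34.5, Ndufaf8 with 1.08 beside 16.9, Ndufaf2 with 0.944 beside 7.12 and Cox7a1 with 0 beside 2.04. Uqcr11, Atp5k and Ndufaf2 were picked by this count after the values were seen. Library 35 was the lowest of the 8 for 40 of the 87 members and library 65 for 25, whereas diet-alcohol library 45 was the highest for 26.

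Members were shorter than most genes, with a median of 1718 bases in the deposited table against 4209 over all nuclear genes tested. Short genes as a whole lay slightly higher in the diet-alcohol group, so members were set beside genes of their own length. Up to 1000 bases the median log2 fold change was -0.12 for 20 members and 0.11 for all genes, and from 1000 to 2000 bases it was -0.05 for 33 members and 0.09 for all. From 2000 to 4000 bases it was -0.18 for 23 members and -0.002 for all, and above 4000 bases -0.20 for 11 members and -0.03 for all. These medians include library 35, without which the median over all nuclear members moved from -0.11 to -0.04. No comparison by length without that library is given here.

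Genes around the chain were counted in 13 lists with 226 genes, of which 217 could be tested. None of the 217 was past the threshold in edgeR, and 15 (6.91%) had an unadjusted p under 0.05, beside 11.6% of all nuclear genes. The tricarboxylic acid cycle and pyruvate dehydrogenase list, which feeds NADH and succinate to the chain, had 14 of 18 genes negative with a median of -0.27. The 77 mitochondrial ribosomal proteins tested, which translate the mitochondrial mRNAs, had 49 positive and 28 negative with a median of 0.12. Larger was the median of the complex I assembly genes outside the rule, at 0.28 with 7 of 9 positive. Mitochondrial DNA maintenance and transcription had 11 of 14 positive and a median of 0.11. No list was set beside genes of its own length. Among the 17 tested complex IV assembly genes, 8 were positive and 9 negative.

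The gene with the smallest p in the lists was Coa6, a copper-handling assembly factor of complex IV. It measured 28.2, 22.1, 16.3 and 15.7 CPM in DSS and 56.9, 44.5, 30.4 and 43.4 CPM in the diet-alcohol group, without overlap. Its log2 fold change was 1.08 ± 0.27 (edgeR adjusted p = 0.0948), and DESeq2 gave an adjusted p of 0.0311. Of all nuclear genes, DESeq2 called 3.15%, and 8.76% did not overlap between the groups. Counts of both over all list genes are not given, so no excess can be read from Coa6 or the genes below.

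Hsd17b10, which besides its enzyme activity is part of mitochondrial RNase P, the enzyme that frees the 5' ends of tRNAs, measured 292, 192, 191 and 140.1 CPM in DSS and 367, 375, 320 and 414 CPM in the diet-alcohol group. All diet-alcohol values were higher, by 0.85 ± 0.24 log2 units (edgeR adjusted p = 0.143; DESeq2 adjusted p = 0.0464). Mrpl38, a protein of the large mitochondrial ribosomal subunit, measured 105, 172, 77.5 and 279.9 CPM against 72.7, 71.7, 66.5 and 61.1 CPM. The DSS libraries spread widely above the diet-alcohol ones, and the difference was -1.22 ± 0.35 (edgeR adjusted p = 0.147; DESeq2 adjusted p = 0.0311).

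In the citric acid cycle list, the smallest p was that of Idh3b, a subunit of the NAD-dependent isocitrate dehydrogenase, with 167, 165, 182 and 133 CPM in DSS and 97.4, 119, 99.1 and 111 CPM in the diet-alcohol group. The groups did not overlap, at -0.60 ± 0.19 log2 units (edgeR adjusted p = 0.187). Atpif1, the inhibitor that binds ATP synthase when it would run backwards, measured 14.4, 11.7, 14 and 10.01 CPM against 17, 23.6, 16.7 and 33.2 CPM, also without overlap (0.85 ± 0.30; edgeR adjusted p = 0.245).

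The regulators of mitochondrial gene expression gave no call either. Tfam, which packages mitochondrial DNA and starts its transcription, measured 18.5, 16.6, 18 and 20.02 CPM in DSS and 11.2, 21.2, 19.7 and 21.3 CPM in the diet-alcohol group. Library 35 alone was low, and the log2 fold change was 0.01 ± 0.27 (edgeR adjusted p = 0.996). Polrmt, the mitochondrial RNA polymerase, measured 20.9, 15.3, 17.5 and 30.7 CPM against 0, 18.8, 25.9 and 13.4 CPM, so its -0.55 rested in part on 0 counts in library 35. Mterf2, a protein of the mitochondrial transcription termination factor family, had 4, 4, 1 and 3 counts against 31, 38, 8 and 18, without overlap (2.16 ± 0.76 log2 units; edgeR adjusted p = 0.25).

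The coactivators of mitochondrial biogenesis differed in sign. Ppargc1a measured 8.03, 12.7, 14.3 and 10.7 CPM in DSS and 15.2, 11.9, 5.66 and 18.5 CPM in the diet-alcohol group, with full overlap (0.18; edgeR adjusted p = 0.916). Ppargc1b measured 5.76, 6.96, 2.04 and 17.2 CPM against 0, 1.49, 2.42 and 2.78 CPM. Its -2.24 ± 0.92 did not pass the test (edgeR adjusted p = 0.357), and DSS library 49 lay within the diet-alcohol range.

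The remaining lists held no call in edgeR either. Their smallest p values belonged to Dmac1 (complex I assembly; 0.49 log2 units, adjusted p = 0.464), Sdhaf2 (the factor that helps attach flavin to Sdha; 0.58, adjusted p = 0.458) and Bcs1l (which inserts the iron-sulfur protein into complex III; 0.43, adjusted p = 0.63). Among carriers and import genes, the smallest belonged to Slc25a10 (dicarboxylate carrier; -0.56, adjusted p = 0.488) and Tomm40 (outer membrane import channel; -0.56, adjusted p = 0.381). Coq10b, a coenzyme Q binding protein, led the electron carrier list (-0.53, adjusted p = 0.391). Its CPM of 20.01, 22.7, 21 and 20.02 in DSS lay above all diet-alcohol values, which were 12.4, 15.9, 14.5 and 15.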

How the data were processed

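RNA of mouse liver was sequenced as mRNA libraries prepared with a SMARTer kit, per the labels' protocols. The deposited table lists raw counts for each gene, per the file headers. FPKM values in it are the authors' own, as are the group means of normalized counts, a signal by the authors that was not used here. The deposited log2 ratio and its p-values come from a comparison by the authors, per the file headers. GRCm38 and mm10 appear as builds in the submitters' processing notes. No source used here gives the aligner, the counter or the strand setting. Reads shared with processed pseudogenes or near-identical copies may have been split or dropped.

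Members and gene lists were chosen with earlier results of these data known. Counts were tested with edgeR 4.0.16 (R 4.3.3; filterByExpr, TMM, robust quasi-likelihood F test, Benjamini-Hochberg, threshold 0.05), once over all genes and once after removing every mt- gene. Nuclear members are given as CPM from the second fit, mitochondrial ones from the first. A ± after a log2 fold change is its standard error. Intervals are 95% t intervals of that fit. Depth limits the low members, and all intervals cover these libraries only. Single shares were compared with exact two-sided permutation tests over 70 assignments, and over fewer where a library was left out. Alternatives were DESeq2 1.42.0, limma-voom 3.58.1, limma on log2(FPKM + 1), other scaling, other filters (none, or 1 CPM in 4 libraries), and leaving out each library. The scripts were tested on simulated data.

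Named were all mitochondrial mRNAs, the 3 nuclear members per complex with the smallest p and the 1 with the highest FPKM, paired tissue isoforms, the smallest p per other list, and Ppargc1a, Tfam and Polrmt. Ndufa4 was counted with complex IV. Sequences are not used here.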

Additional observations from a re-analysis of the deposited data

Results flagged for a closer look

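Of 154 groups of 4 libraries looked at, 16 (10.4%) held a library whose gap to its nearest neighbour was large for the range of its group, where chance alone gives about 1 in 20. Many of these values come from the same libraries and are not independent.

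Diet-alcohol library 65 stood high for mitochondrial RNA. It had 2.66 mitochondrial mRNA counts per nuclear count, with 0.419 to 0.713 in the other 3. It had 203000 CPM of mt-Cytb beside 32100 to 46300, 102000 of mt-Nd1 beside 18900 to 26100, 103000 of mt-Nd4 beside 17000 to 24500, and 78500 of mt-Nd5 beside 10700 to 17500. The same library had 21600 CPM of mt-Nd6 beside 3680 to 6650, 17500 of mt-Co2 beside 1160 to 2680, 10800 of mt-Atp6 beside 1490 to 2520, 1340 of mt-Nd3 beside 170 to 215, and 1280 of mt-Nd4l beside 39.6 to 55.4. The share of mt-Nd4l in its mitochondrial mRNA was 0.127%, with 0.0137 to 0.0264% in the others. The nuclear gene Sdhd stood low in it, at 114 CPM beside 179 to 191.

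Diet-alcohol library 35 stood low for 3 values. The share of mt-Cytb was 11.2% beside 19.1 to 20.1%, Cox6b1 measured 62.8 CPM beside 168 to 172, and Tfam 11.2 CPM beside 19.7 to 21.3. In the DSS group, library 50 stood low for Uqcrc1, at 224 CPM beside 271 to 280.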

How the results depend on the processing

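No paired analysis was possible because no replicate number occurs in both groups. The count of members called over all genes was 0 except that leaving out each library in turn gave 0 to 1, the 1 without diet-alcohol library 65. In the same refits, the median log2 fold change of the mitochondrial mRNAs ran from -1.94 to -0.30 for complex I and from -2.28 to -0.87 for complex III, both lowest without library 65. They ran from -1.69 to -0.25 for mitochondrial complex IV and from -1.97 to -0.65 for mitochondrial ATP synthase. Nuclear medians ran from -0.22 to -0.04 for complex I, 0.007 to 0.46 for its assembly factors, -0.33 to -0.14 for complex II, -0.38 to -0.19 for complex III, -0.20 to 0.0004 for complex IV and -0.19 to -0.06 for ATP synthase. Sums by complex, the total mitochondrial share of counts and medians other than the first 2 moved by less than 1 SD between libraries under each alternative run. For the 13 single mRNA shares, only the count past the threshold was compared, and it stayed at 0. For the 56 named genes with a fit, 774 of 797 alternative values kept their direction and 23, in 10 genes, did not. Limma-voom gave -1.53 for mt-Nd4l (also -1.53 on log2(FPKM + 1)), -0.33 for Ndufaf8, -0.0101 for Ndufa4 and -0.0229 for Tfam. Leaving out single libraries turned the sign of others, with ranges of -1.99 to 0.0321 for mt-Co2, -2.85 to 0.43 for mt-Nd4l, -0.20 to 0.0129 for Sdhd, -0.0697 to 0.37 for Uqcrq, -0.0818 to 0.17 for Cox4i1, -0.22 to 0.0205 for Cox8a, -0.0617 to 0.17 for Ndufa4, -0.0558 to 0.41 for Ppargc1a and -0.0817 to 0.18 for Tfam. Coa6, Hsd17b10 and Mrpl38 passed the threshold with DESeq2 (adjusted p 0.0311, 0.0464 and 0.0311), and without a filter Coa6 (0.036) and Mrpl38 (0.0104) did. The cause of these differences was not tested. With 4 libraries a group and as few as 2722757 nuclear counts, the 95% interval was wholly within 1 log2 unit of 0 for 1 of the 8 Ndufaf factors and for 0 of the 13 mitochondrial mRNAs.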
